A study of Mus musculus with 3 samples.

Results

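The data collected for the pluripotency factors of the mouse blastocyst were the signals of 15 array probes for 10 genes (Pou5f1, Nanog, Sox2, Esrrb, Klf2, Klf4, Tdgf1, Sall4, Zfp42 and Prdm14). They were chosen as every non-control probe whose RefSeq accession belongs to 1 of these genes, which gave 10 of the 23458 named genes and 15 of the 56591 probes with a value on all 3 arrays. No measured value entered the choice, although the genes were picked when earlier results of these arrays were known. The arrays compared blastocysts of young mice, blastocysts of aging mice, and blastocysts of aging mice in which signaling from the chemokine CXCL5 to its receptor CXCR2 was suppressed, to ask whether the suppression alters gene expression of aging embryos.

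All embryos came from superovulated ICR females, an outbred strain, mated with males whose age the labels do not give. The young females were 3 to 6 weeks of age. The females of both aging groups were 43 to 53 weeks of age. Zygotes were flushed from the oviduct 18 h after hCG injection and cultured in KSOM medium for 96 h. For suppression, the medium of aging embryos held 10 μg/ml of an antibody that neutralizes CXCL5 together with 10 nM of a CXCR2 antagonist, and the other embryos received neither. The agents were not given to young embryos or singly in these arrays. Each group was 1 pool of 30 expanded blastocysts on 1 array, which leaves the spread between embryos unmeasured and allows no test between groups. A pool of whole blastocysts mixes all cell types of the embryo, and fewer cells of a type and less RNA per cell cannot be told apart.

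A blastocyst holds the trophectoderm, which forms the placenta, and an inner cell mass, which sorts into the epiblast and the primitive endoderm. The epiblast gives rise to the fetus, and its ability to form every tissue is called pluripotency. Pou5f1 (also named Oct4), Sox2 and Nanog encode transcription factors at the core of the network that maintains it. Pou5f1 and Sox2 proteins bind DNA as a pair at a composite of the octamer and SOX motifs, and both of their own genes and Nanog are known targets. Esrrb, Klf2 and Klf4 mark the naive state of the early epiblast. Several of these genes are not made by the epiblast alone, since Sox2 and Esrrb, for instance, also act in trophoblast stem cells.

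The promoter sequences of 3 members are shown because they carry the octamer core through which Pou5f1 protein binds, and because Sox2 and the dimmer of 2 Nanog probes, but not the brighter one, are over 2-fold apart below. The sequences are from RefSeq on build GRCm38.p6, run 5′ to 3′ on the strand of the gene, and have the matched motifs in capitals.
Nanog, chr6:122707239-122707488, plus strand, positions -250 to -1 from the start: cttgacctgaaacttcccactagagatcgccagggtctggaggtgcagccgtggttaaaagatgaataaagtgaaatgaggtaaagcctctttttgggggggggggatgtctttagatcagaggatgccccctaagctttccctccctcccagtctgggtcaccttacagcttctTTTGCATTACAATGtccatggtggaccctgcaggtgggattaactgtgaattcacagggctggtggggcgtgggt
Sox2, chr3:34649865-34649934, plus strand, positions -130 to -61 from the start: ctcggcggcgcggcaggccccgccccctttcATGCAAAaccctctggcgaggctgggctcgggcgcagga
Zfp42, chr8:43307060-43307219, minus strand, positions -210 to -51 from the start: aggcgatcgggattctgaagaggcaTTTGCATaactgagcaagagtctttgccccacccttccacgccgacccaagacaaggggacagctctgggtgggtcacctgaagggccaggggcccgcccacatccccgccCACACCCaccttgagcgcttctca
In Nanog the capitals mark the SOX-octamer composite on the opposite strand, at positions -75 to -62 from the start. In Sox2 they mark the octamer core on the strand of the gene, at positions -99 to -93. In Zfp42 they mark an octamer core at -185 to -179 and a KLF core at -74 to -68, both on the opposite strand.

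Motifs were searched on both strands in the 250 bases before each start, over 32851 windows of all genes. The table held 11 windows for 8 of the 10 members and none for Sall4 and Prdm14, which were not analysed here. The octamer core, ATGCAAA, was found in 4 of the 11 member windows and in 4.12% of all windows. The 4 windows belong to 3 members (Nanog, Sox2 and Zfp42), and those of Nanog overlap and hold the same site. The composite, a SOX core and an octamer core with 1 base of any kind between them, overlaps the matches of both cores. It was found in 2 windows of all genes, and both were overlapping windows of Nanog. The SOX core, CATTGT, was found in 10.7% of all windows and, among the members, in those of Nanog and in 1 window of Pou5f1. The KLF core, GGGTGTG, was found in 6.93% of all windows and, among the members, in 1 window of Esrrb and in that of Zfp42. The ESRRB core, AAGGTCA, was found in 4.08% of all windows and in none of the members. A match describes the letters of the window and does not show that a factor binds there.

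All 15 probes were well above background on all 3 arrays, and none of their spots was marked as an outlier or saturated. Levels below are log2 intensities minus the 75th percentile of the array, equal to intensities of 145 (young), 155 (aging) and 122 (suppressed aging). Between 56.4% and 58.7% of the probes on an array were well above background. Of the 300 probes with 10 spots each, 288 to 290 were above background on an array. These had a median SD of 0.045 to 0.052 (log2) between spots of the same array. From this the SD of a difference between 2 single spots is about 0.074, which covers the reading of the spot and leaves out the spread between embryos. The level of a probe also depends on its sequence, so each probe is compared between arrays and not with other probes. Where the factors are counted by gene, the gene is represented by its brightest probe, that of highest mean signal over the arrays.

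**Figure D1:**
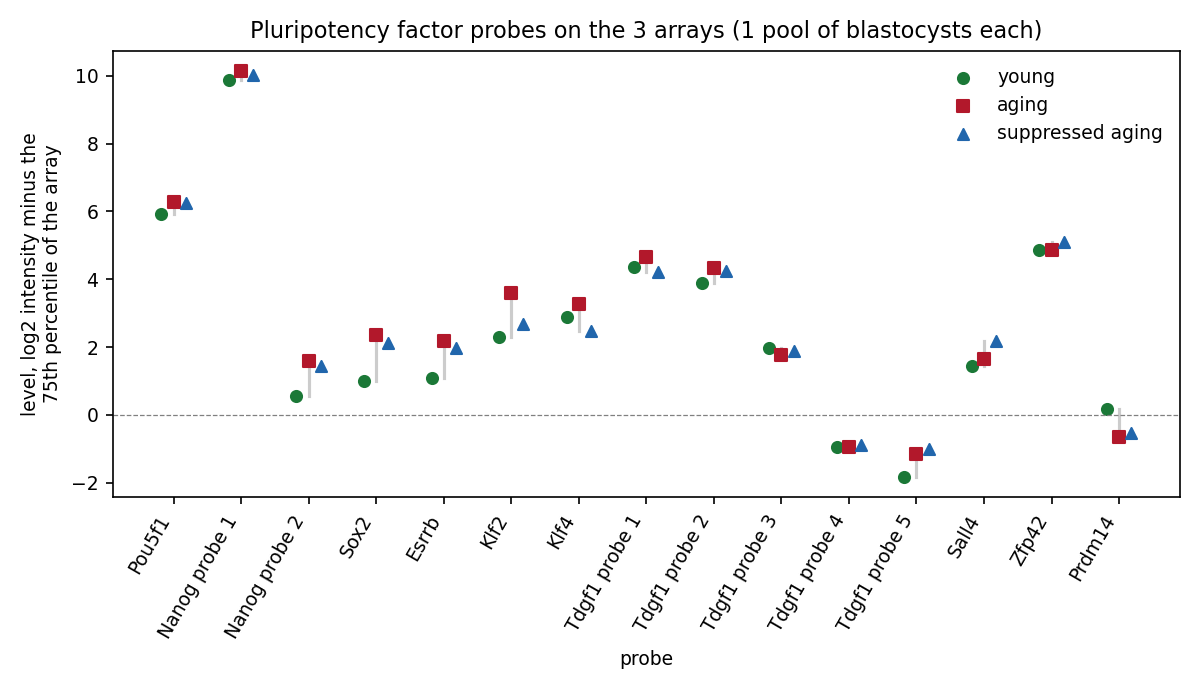
Level of each of the 15 probes (vertical axis, log2 intensity minus the 75th percentile of the array) on the young (green circle), aging (red square) and suppressed aging (blue triangle) array, with 1 pool of blastocysts each and no error bars. Sox2, Esrrb, Klf2 and the second probe of Nanog were at least 1 log2 unit higher on the aging than on the young array, while the brightest probe of Nanog and the probes of Pou5f1 and Zfp42 differed by at most 0.34 between arrays. Only the 3 marks of 1 probe can be compared with each other.

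In aging compared with young blastocysts, most pluripotency factors had a higher signal. Of the 15 probes, 12 had a higher and 3 a lower signal on the aging array, where 48.2% of all probes compared were higher. By gene, 8 of 10 were higher, with a median log2 difference of 0.31, whereas 51.9% of all 16164 genes compared were higher, with a median of 0.03. A difference of over 2-fold was seen for 4 probes, those of Sox2, Klf2, Esrrb and the second probe of Nanog, and all 4 were higher on the aging array. Sox2, Klf2 and Esrrb have 1 probe each, so the difference of each gene rests on 1 probe. Among all 35758 probes that could be compared, 9.98% were over 2-fold higher and 11.1% over 2-fold lower. None of the member probes passed 5-fold, which 3% of all probes did.

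The core factors did not share 1 size of difference. Sox2, the partner of Pou5f1, had a level of 1.004 in young, 2.37 in aging and 2.11 in suppressed aging blastocysts, from intensities of 291, 799 and 527. The young array was thus the low one, and the aging array was 2.58-fold higher (log2 difference 1.37). Pou5f1, the factor that sets the inner cell mass apart from the trophectoderm, had levels of 5.93, 6.27 and 6.25 on the young, aging and suppressed aging arrays. Its aging signal was 1.26-fold that of the young array, a log2 difference of 0.34. It was a bright probe, with intensities from 8831 to 11898.

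Nanog, which separates the epiblast from the primitive endoderm, was read by 2 probes. The brighter probe had levels of 9.88 in young, 10.14 in aging and 10.03 in suppressed aging blastocysts, with intensities from 127654 to 174471. The dimmer probe had levels of 0.57, 1.59 and 1.45, with intensities of 215, 464 and 335. Both probes were lowest on the young and highest on the aging array, but the log2 difference of aging against young was 0.26 for the brighter and 1.02 for the dimmer probe. The dimmer probe therefore passed 2-fold and the brighter one did not. Both are annotated to the same RefSeq transcript of Nanog, and the part of it that each reads was not analysed here.

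Of the naive-state factors, Esrrb and Klf2 were over 2-fold higher in aging blastocysts and Klf4 was not. Esrrb, an orphan nuclear receptor, had levels of 1.07 in young, 2.18 in aging and 1.96 in suppressed aging blastocysts. Its log2 difference of aging against young was 1.11, or 2.15-fold, with both aging arrays above the young one. Klf2, a zinc finger factor downstream of signals for the naive state, had levels of 2.29, 3.60 and 2.67, from intensities of 711, 1877 and 780. Here the aging array alone was high, at 2.48-fold the young array (log2 difference 1.31). Klf4, a related factor and a reprogramming factor, had levels of 2.90, 3.26 and 2.46. Its aging signal was 1.28-fold that of the young array, and the suppressed aging array was the lowest of the 3.

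The other members were closer to 0 or lower in aging blastocysts. Zfp42 (also named Rex1), a marker of naive cells, had levels of 4.86 on the young and 4.86 on the aging array, and its log2 difference of -0.00065 took the opposite sign in 3 of 8 alternative settings. Sall4, a zinc finger factor that works with Pou5f1, had levels of 1.44 on the young and 1.64 on the aging array, a 1.15-fold difference. Prdm14, a regulator of the naive state and of germ cells, was the only member gene lower by more than 1.5-fold, with levels of 0.18 in young, -0.66 in aging and -0.53 in suppressed aging blastocysts. Its intensity was 164, 97.5 and 84.7, and the aging signal was 1.80-fold lower than the young signal.

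Tdgf1 (also named Cripto), the co-receptor through which Nodal signals in the epiblast, was read by 5 probes that did not all point the same way. The brightest had levels of 4.37 in young, 4.64 in aging and 4.22 in suppressed aging blastocysts, and the second 3.89, 4.34 and 4.24. Both were higher in aging than in young blastocysts, by log2 differences of 0.27 and 0.45. The third probe, with levels of 1.96, 1.77 and 1.87, differed by -0.19, and the fourth, with levels of -0.94, -0.94 and -0.89, by 0.0020. The dimmest probe, with intensities of 40.7, 69.9 and 60.4, had a log2 difference of 0.69. The 5 probes of this gene thus spanned 0.88 log2 units for 1 comparison of the same pools. Over all 4679 genes with at least 2 probes above background on all arrays, the 2 brightest probes differed by a median of 0.54, and 57% of these genes had both probes on the same side of 0. The like measure for Tdgf1 is the gap between its 2 brightest probes, at 0.27 and 0.45. This gap was below that median, and both probes were on the same side of 0. For the 2 Nanog probes the gap was 0.75, above that median, with both also on the same side of 0.

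**Figure D2:**
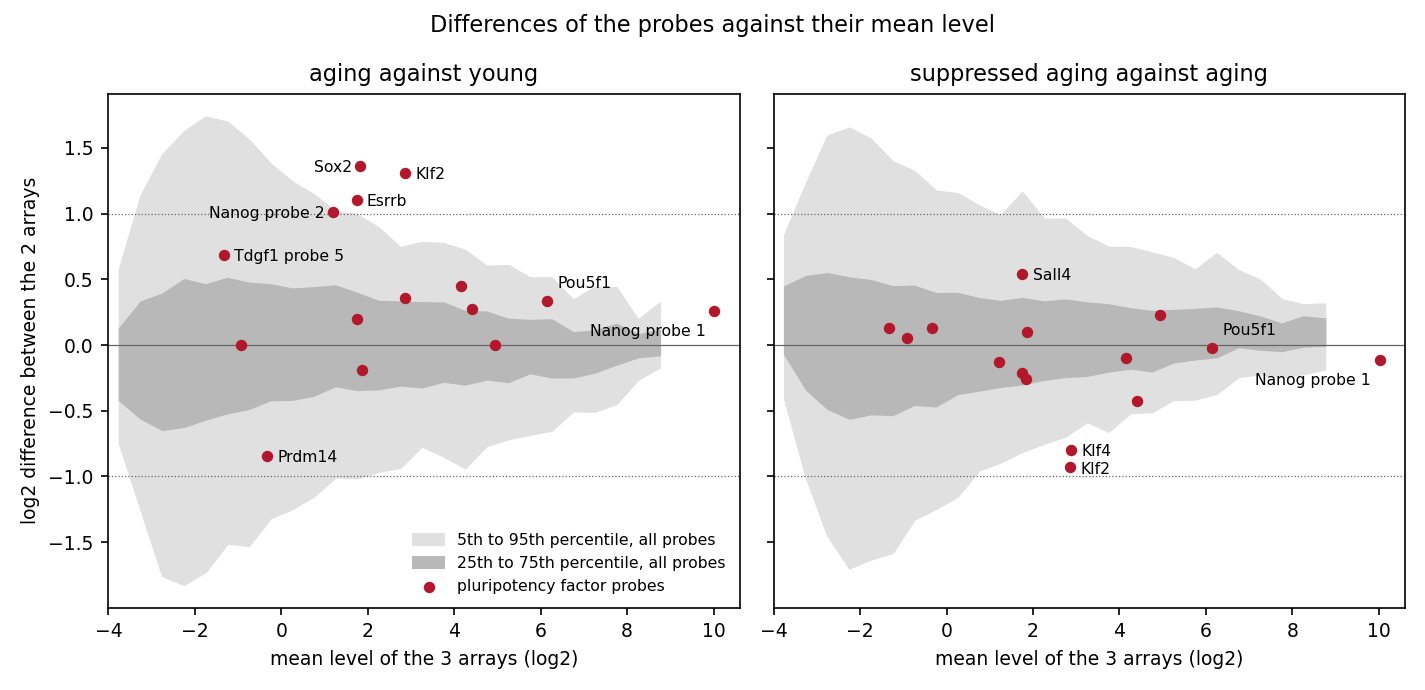
Log2 difference between 2 arrays (vertical axis) against the mean level over the 3 arrays (horizontal axis, log2) for the 15 pluripotency factor probes (red points), over the 25th to 75th (dark grey) and 5th to 95th (light grey) percentile of all probes above background on the 3 arrays in bins of mean level. Dotted lines mark 2-fold. In aging against young, Sox2, Esrrb and Klf2 lie above the grey bands and the second Nanog probe on their edge, and in suppressed aging against aging Klf2 and Klf4 lie below them.

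Dim probes differed more between arrays than bright ones, so the members were also set beside probes of like signal. Among the 6930 probes above background on all arrays with a mean level from 0 to 2, 6.18% were over 2-fold higher in aging than in young blastocysts, and 3 of the 5 member probes in this range were. From 2 to 4 the share of all probes was 2.37%, and 1 of 2 member probes was over 2-fold higher. Above 4 it was 0.764%, and none of the 5 member probes was. Below 0 the share was 11.2%, and none of the 3 member probes there was. In the bin of mean level centred on 1.75, which holds Sox2 and Esrrb, the 95th percentile of the difference was 0.99. In the bin centred on 2.75, which holds Klf2 and Klf4, it was 0.74, against the difference of 1.31 for Klf2. These percentiles describe 1 pair of arrays and give no error between embryos.

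In suppressed aging compared with aging blastocysts, the pluripotency factors differed by less, and more of them were lower. Of the 15 probes, 9 were lower and 6 higher, beside 51.3% of all probes that were higher, and none passed 2-fold, which 9.86% of the 34752 probes compared did upward and 9.1% downward. By gene, 3 of 10 were higher, with a median log2 difference of -0.16, whereas 49.7% of all 15875 genes were higher, with a median of -0.0034. The aging array also stands in the comparison with young blastocysts, so a high reading of it alone moves both comparisons, in opposite directions.

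The Klf genes had the widest differences with suppression. Klf2 had a log2 difference of -0.93, which is 1.91-fold lower, and Klf4 one of -0.80, which is 1.74-fold lower. In their bin of mean level the 5th percentile over all probes was -0.69. Klf2 on the suppressed aging array remained above its young level by 0.38, while Klf4 was below its young level, at -0.44. Klf2 reached 2-fold with quantile normalization (-1.004) and Klf4 with normexp background correction (-1.004).

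The core factors were near their aging levels with suppression. Pou5f1 differed by -0.02, the brighter Nanog probe by -0.11, the dimmer one by -0.13, Esrrb by -0.22 and Sox2 by -0.26, all on the log2 scale. Sall4 was the member with the widest difference upward, at a level of 2.18 on the suppressed aging array, which was 1.46-fold its aging and 1.67-fold its young signal. Zfp42, at a level of 5.09 with suppression, was 0.23 log2 units above the aging array, and Prdm14 0.13. Of the 5 Tdgf1 probes, 2 were lower and 3 higher, from -0.42 to 0.13.

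Compared with young blastocysts, the suppressed aging blastocysts had a higher signal for 11 of 15 probes and 7 of 10 genes, beside 49.8% of all probes. The median over the genes was 0.27, beside 0.03 for all 15931 genes compared, of which 52.4% were higher. Sox2 was the 1 member over 2-fold higher, by 2.15-fold (log2 difference 1.10), where 8.88% of all 34959 probes compared were. With normexp its difference was 0.87, which is under 2-fold. The log2 difference was 0.89 for Esrrb, 0.88 for the dimmer Nanog probe, 0.81 for the dimmest Tdgf1 probe and 0.74 for Sall4. Prdm14 and Klf4 lay below their young levels, with log2 differences of -0.71 and -0.44. This comparison shares an array with each of the other two.

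The young array held the lowest level for 6 of the 10 genes, where 36.7% of 13811 genes above background on all arrays had it. The suppressed aging level was nearer to the aging than to the young level for 6 of the 10 members and for 48.7% of those genes. Klf2, Klf4, Zfp42 and Tdgf1, by its brightest probe, were the members whose suppressed level was nearer to the young one or beyond it, although the young and aging levels of Zfp42 were nearly the same.

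**Figure D3:**
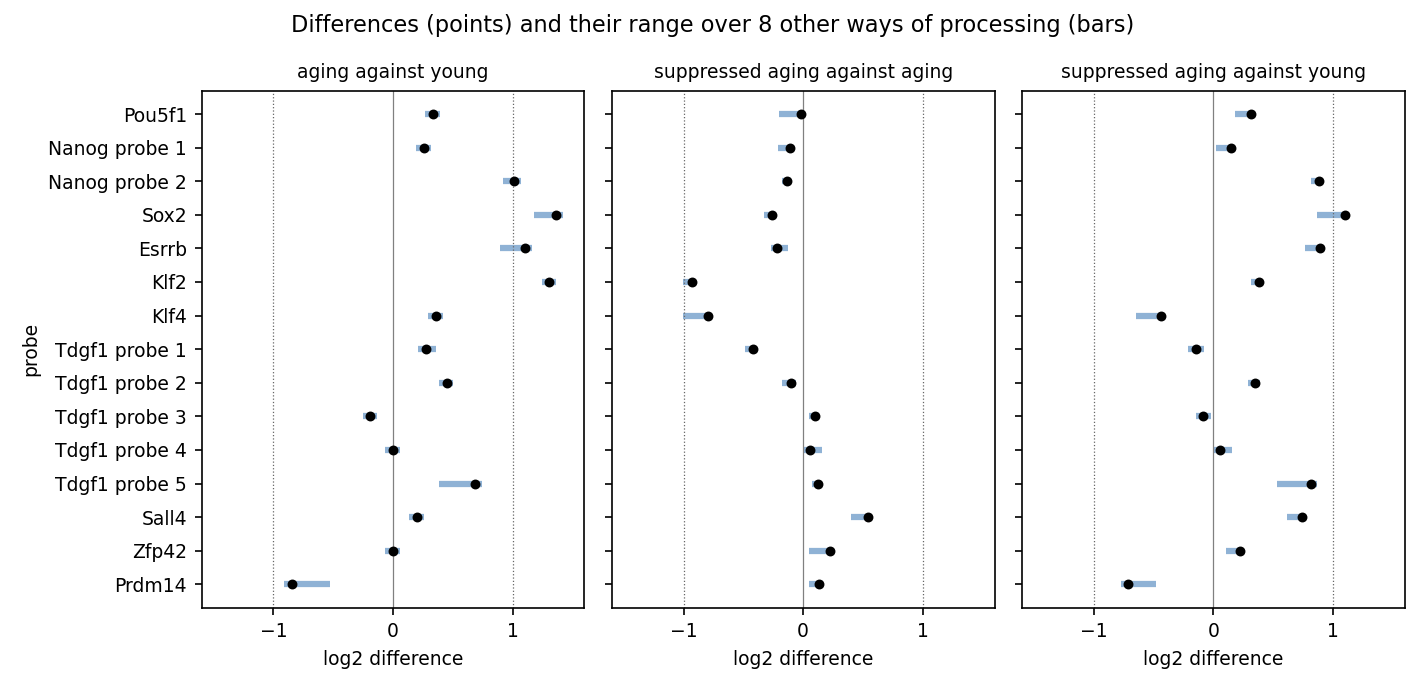
Log2 difference of each of the 15 probes in the 3 comparisons (black points) and the range of the same difference over 8 other ways of processing the arrays (blue bars), with dotted lines at 2-fold. In aging against young, 13 of 15 probes kept their direction in all 8, and the fourth Tdgf1 probe and Zfp42 crossed 0. Among the 8, only normexp and quantile normalization moved the probes by unlike amounts.

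Most probes kept their direction under other processing. In aging against young, 13 of 15 probes kept their sign in 8 alternatives. In suppressed aging against aging all 15 did, and in suppressed aging against young 14 did. Of these alternatives, the filters on dim probes leave a probe's value as it is. The other centrings, the authors' values and outlier spots kept move all 15 probes by the same amount. Only normexp and quantile normalization moved the probes by unlike amounts. The 2-fold mark was less firm. The log2 difference of aging against young ranged from 1.18 to 1.42 for Sox2 and from 1.24 to 1.36 for Klf2, but from 0.89 to 1.16 for Esrrb and from 0.92 to 1.07 for the dimmer Nanog probe. With normexp, 2 probes, those of Sox2 and Klf2, were over 2-fold.

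The 4 probes over 2-fold apart in aging against young were also those that spanned more than 1 log2 unit over the arrays. The genes closest to each in shape are given as a description over 3 arrays. The measure was the root mean square difference of the centred levels, among 13801 genes. Closest to Sox2 were Eri1, Chga and Fbxl20, and 69 genes lay within 0.1. Closest to Klf2 were Lilra6, Slc39a4 and Mrs2, with 124 genes within 0.1. Closest to Esrrb were Eid2b, Fem1al and Cblb, with 164 genes, and closest to the dimmer Nanog probe were Rnf130, Mier2 and Nexn, with 174 genes. With 3 arrays, many genes have the same shape.

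The wider pluripotency network was described by 28 other genes, all on the array. Of these, 27 could be compared in aging against young, where 21 were higher and 6 were lower (median log2 difference 0.15). Over all genes compared, 51.9% were higher. Tet1, an enzyme that oxidizes methylated cytosine, had the highest difference, with levels of 2.44 in young, 3.56 in aging and 3.38 in suppressed aging blastocysts. Its second probe was also higher, by 0.94. Fgf4, the signal from the epiblast that induces primitive endoderm, had levels of -0.32, 0.80 and 0.13. Tet1 and Fgf4 were each 2.17-fold higher in aging than in young blastocysts.

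Stat3, which carries the signal of leukemia inhibitory factor, had the lowest difference of the network in aging against young. Its levels were 7.37 in young, 5.84 in aging and 6.51 in suppressed aging blastocysts. Its second probe differed by -0.13, so the log2 difference of -1.53 rests on 1 probe. The network thus held genes that were higher and genes that were lower, and the leukemia inhibitory factor receptor gene Lifr, at 0.53, lay on the other side of 0 from Stat3.

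With suppression, 10 of the 25 network genes that could be compared were higher and 15 lower than in aging blastocysts, with a median of -0.04. Over all genes compared, 49.7% were higher. Otx2, a factor of the later, primed epiblast, had levels of -0.22 in young, 0.89 in aging and -1.05 in suppressed aging blastocysts. It was 3.83-fold lower with suppression by this probe, and its second probe had a log2 difference of -0.66. Lifr differed by -0.80, and by -2.05 with its second probe. That probe was dim with suppression, at a level of -3.47 beside a detection limit of -3.93. Zfp57, a factor that protects imprints, was higher by 0.82 on the log2 scale, but its second probe was at -0.54. Pou3f1, a primed-state factor, was higher by 0.72. Fgf5, a marker of the primed epiblast, was below background on all 3 arrays. By its brightest probe, Dnmt3b, another marker of that state, had levels of 5.54, 5.51 and 5.54 on the young, aging and suppressed aging arrays.

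Against young blastocysts, 15 of 26 network genes were higher with suppression, with a median of 0.08, beside 52.4% of all genes compared. The log2 differences of Pou3f1 and Tet1 were 0.96 and 0.94, whereas those of Stat3 and Otx2 were -0.86 and -0.84. The second probe of Otx2 was at 2.26 and that of Stat3 at 0.65, opposite in direction to the first probe of each gene. On the young array this Otx2 probe was dim, at a level of -3.59 beside a detection limit of -4.20. The second probe of Tet1 was at 0.60.

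**Figure D4:**
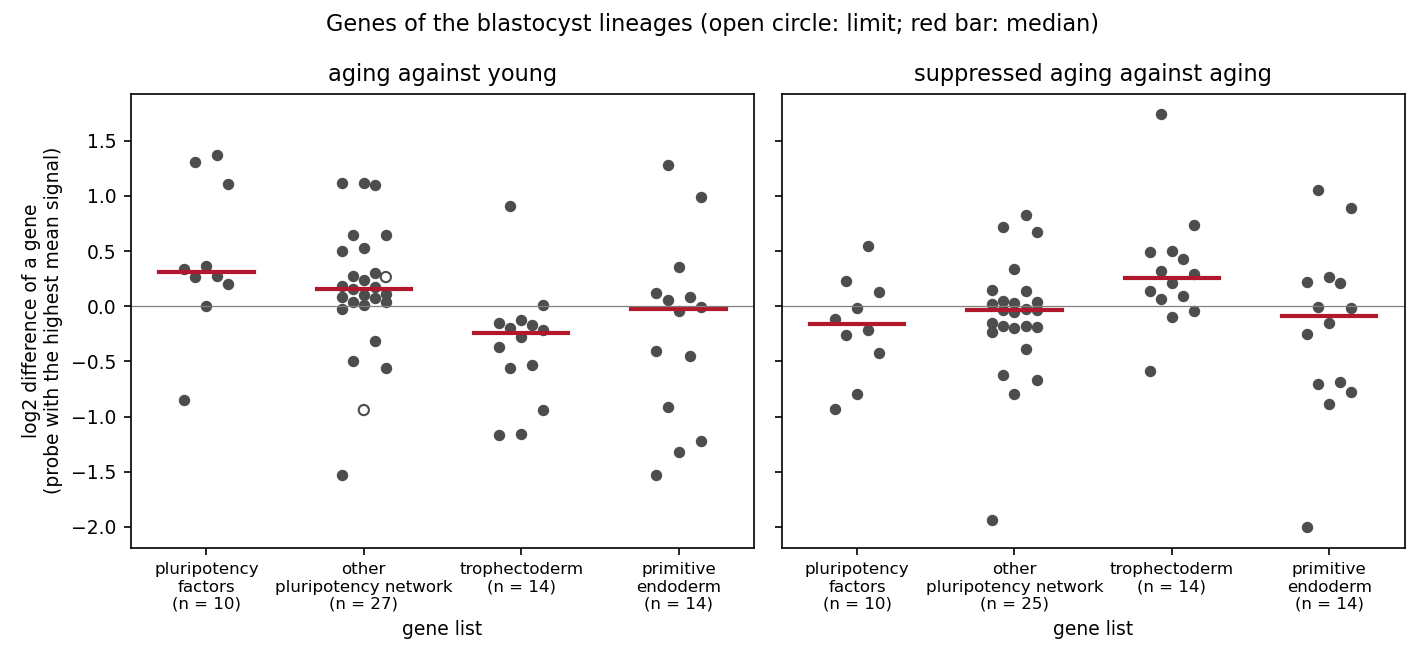
Log2 difference of each gene (points, vertical axis) in 4 gene lists (horizontal axis), for aging against young and suppressed aging against aging, with the median of each list as a red bar and open circles for limits set by the detection limit of 1 array. In aging against young the medians were 0.31 for the pluripotency factors and -0.25 for the trophectoderm, and in suppressed aging against aging they were -0.16 and 0.25.

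Markers of the other cell types of the embryo also differed between the arrays. Their differences are on the log2 scale, by the brightest probe of each gene. Beside the counts below, 51.9% of all genes compared were higher in aging against young. The share was 49.7% in suppressed aging against aging and 52.4% in suppressed aging against young. The first 2 comparisons share the aging array, so a high or low reading of it alone moves both, in opposite directions. The median of every marker list and of the network kept its sign in 7 ways of scaling in all 3 comparisons, except that of the primitive endoderm in aging against young. Of these ways, normexp and quantile normalization move genes by unlike amounts. The centrings and the authors' values move all measured differences by the same amount. All 14 trophectoderm genes were above background on all arrays. Between aging and young blastocysts, 12 of the 14 were lower, with a median of -0.25. Krt7, a keratin of the trophectoderm epithelium, was the lowest at -1.17, and Elf5, a trophoblast stem cell factor, the highest at 0.91. With suppression 11 of 14 were higher than in aging blastocysts, with a median of 0.25, led by the keratin gene Krt19 at 1.74, while Elf5 was at -0.58. Against young blastocysts 6 of 14 were higher, with a median of -0.05, from Krt7 at -0.74 to Krt19 at 0.80. The log2 of the summed scaled intensity of the list was 9.43 in young, 9.09 in aging and 9.29 in suppressed aging blastocysts, where that of the 10 pluripotency factors, most of it from Nanog, was 10.07, 10.34 and 10.23. The part of a shift in the share of cell types in the pluripotency factor differences was not tested.

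The 14 primitive endoderm genes were all above background on all arrays. Aging blastocysts had 6 of them higher and 8 lower than young blastocysts, and the median of -0.02 ranged from -0.09 to 0.04 over 7 ways of scaling. Sox17, a factor of this lineage, was the lowest at -1.53, although its second probe was at 0.33, and the growth factor receptor gene Pdgfra the highest at 1.28. With suppression 9 were lower and 5 higher than in aging blastocysts, with the median at -0.09, from the endoderm factor gene Foxa2, which was 4.0-fold lower, to the laminin gene Lamb1 at 1.05, whose other probes were at 0.12 and 0.28. Against young blastocysts 11 were lower and 3 higher, with the median at -0.28, from Foxa2 at -1.94 to Lamb1 at 1.05, whose other probes were at -0.07 and -0.11. The log2 of the summed scaled intensity was 6.84 in young, 6.63 in aging and 6.57 in suppressed aging blastocysts.

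Of the 12 genes of cumulus and granulosa cells, which surround the oocyte, 7 were below background on all arrays. These were Has2, Ptx3, Tnfaip6, Vcan, Fshr, Inha and Inhba. Of the 5 that could be compared in aging against young, 1 was higher, with a median of -0.12, and in suppressed aging against aging 4 of 5 were higher, with a median of 0.23. Among those measured on both arrays, Amh, a hormone of granulosa cells, was the lowest in aging against young at -0.46 and Star, a carrier of cholesterol for steroid synthesis, the highest at -0.03. Both were dim. Amh had levels of -3.33, -3.79 and -3.68 on the young, aging and suppressed aging arrays, beside detection limits of -4.20, -4.32 and -3.93. Star had levels of -2.89, -2.92 and -2.51. With suppression, against aging, Amh was at 0.11 and Star at 0.41. Against young blastocysts 3 of 4 were higher, with a median of 0.14, from Amh at -0.36 to Star at 0.38. The log2 of the summed scaled intensity lay between 8.55 and 8.78, nearly all of it from Foxl2. The level of Foxl2 was 8.66 in young, 8.54 in aging and 8.77 in suppressed aging blastocysts.

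Among 11 maternal oocyte genes on the array, 8 could be compared in each comparison. Of these, 5 were higher in aging than in young blastocysts, with a median of 0.20, from Nlrp5, a maternal effect gene, at -0.30 to the zona pellucida gene Zp2 at 2.35 among those measured on both arrays. Zp2 was dim on the young array, at a level of -3.29 beside a detection limit of -4.20. Its second probe was below background on all arrays. The oocyte growth factor gene Bmp15, below background on the young array, had a limit of 2.95. With suppression 2 of the 8 genes were higher than in aging blastocysts, with a median of -0.64. Among those measured on both arrays the range was from the oocyte growth factor gene Bmp15 at -2.20 to Padi6 at 0.29, whose second probe was at -0.40. Zp2, below background with suppression, had a limit of -2.995. Against young blastocysts 3 were higher, with a median of -0.08, from Ooep at -0.34 to Zp3 at 1.54 among those measured on both arrays. The limits of Gdf9 and Zp2 were lower, at -1.94 and -0.64. The log2 of the summed scaled intensity of the list was 4.20 in young, 4.31 in aging and 4.14 in suppressed aging blastocysts. Zp1, Mos and Oosp1 were below background on all arrays.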

How the data were processed

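The members and gene lists were chosen with earlier results of these data known. Deposited by the authors were spot intensities (Cy3, 1 colour) after background subtraction and detrending by Agilent Feature Extraction 12.0.3.1, without normalization between arrays, and a table of processed values that is this intensity times 1 constant factor per array. Labels name a kit that labels cRNA from total RNA, whereas the paper's methods name single-primer global PCR, and the intensities cannot tell which applies. Such amplification can change the relation between RNA amount and signal, and each array holds 1 amplified pool.

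Control spots and outlier spots were left out. Log2 intensities were averaged per probe, and each array's 75th percentile was subtracted. Accessions were named through a RefSeq table of GRCm38.p6, used for names only, since the array design names an older build. Promoter windows are of GRCm38.p6. A probe below background on 1 of 2 arrays gave the smallest difference that the detection limit allows (young -4.20, aging -4.32 and suppressed aging -3.93 on the log2 scale). A probe below background on both gave none. The 3 arrays limit the precision, and no P-value was computed.

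Named genes were all members, the 2 highest and 2 lowest network genes per comparison, the highest and lowest gene of each marker list, and up to 3 genes of closest shape. A result that meets this rule is not reported here. Lifr in aging against young, Dnmt3b, Foxl2, Gdf9, the limit of Bmp15 and the marker genes below background are named outside this rule. They were named after their values were seen. No column of an unknown sample was found. Alternatives were normexp (limma 3.58.1, offset 50, on median pixel intensities, since mean intensities were not used here), quantile normalization, centring on probes above background or on 15 housekeeping genes, the authors' values, outlier spots kept, filters on dim probes, the mean over probes, and 5-fold. The procedure was tested on simulated data. Python 3.11.15, NumPy 2.4.6, pandas 2.3.3, Matplotlib 3.10.9 and R 4.3.3 were used.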

Additional observations from a re-analysis of the deposited data

How the results depend on the processing

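With 1 array per group, no array could be left out. No paired analysis was possible because each group has 1 sample and no difference comes from a test. The number of probes over 2-fold apart in aging against young was 4, and 2 with normexp. In suppressed aging against aging it was 0, and 1 lower with normexp and 1 lower with quantile normalization, by Klf4 and Klf2. In suppressed aging against young it was 1, and 0 with normexp. With a threshold of 5-fold it was 0 in all 3 comparisons. The median log2 difference over the 10 genes in suppressed aging against aging was -0.16, and -0.24 with quantile normalization and -0.085 when the probes of a gene were averaged. In suppressed aging against young it was 0.27, and 0.15 with normexp and 0.35 with the mean over probes. In aging against young it lay between 0.24 and 0.36 over the ways of scaling. No median changed sign. The causes of these shifts were not tested. Of the single probes, the fourth Tdgf1 probe and Zfp42 in aging against young and the fourth Tdgf1 probe in suppressed aging against young took the opposite sign in some alternatives. With normexp, which here also started from median pixel intensities, the dimmest Tdgf1 probe in aging against young was at 0.38 in place of 0.69 and Prdm14 at -0.53 in place of -0.85.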
